A study of Vitis vinifera with 11 samples.

Results

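In grapevine (Vitis vinifera), 55 genes of 25771 had transcript levels that stepped down from one inflorescence to the next along the shoot. Each gene had at least 10 RPKM (reads per kilobase per 1e6 mapped reads) in the inflorescence nearest the shoot apex, at most 50% of that level at node 2, and at most 50% of the node 2 level at node 3. The rule was applied to the deposited RPKM values in each of 2 dwarf lines separately, and a gene had to meet it in both. Of the 10494 genes with at least 10 RPKM at node 1 in both lines, the 55 made up 0.524%. The inflorescence values chose the genes, so their decrease along the inflorescence nodes is described below without a test. The tendril and leaf libraries took no part in the choice.

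Grapevine shoots carry a lateral organ opposite the leaf at most nodes, and this organ can become an inflorescence or a tendril. Both start from the same kind of uncommitted primordium, which forms at the apex, so the organs lie in order of age along the shoot, with the youngest at node 1. Young tissues of the vine, shoot tips and flower buds among them, accumulate flavonoids, whose synthesis is switched on by complexes of a MYB protein, a bHLH protein and a WD40-repeat protein. The bHLH factor MYC1 (LOC100251098) was the 1 gene of the 55 with a name in the sources used here.

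The inflorescences came from the picovine lines 06C021V0046 (replicate 1) and 06C008V0003 (replicate 2), dwarf vines, with 1 library per line at nodes 1, 2 and 3. Pinot Meunier L2, the control vine, gave the tendrils of the same 3 nodes, with 1 library per node, and leaves of the 3 nodes had been pooled into 1 library of 06C021V0046 and 1 of Pinot Meunier L2. All plants shared one growth regime of long days, with cooler nights, and the labels give no allele, plant age or number of plants per library. The first line is spelled 04C021V0046 in the growth text, and the source labels place the Pinot Meunier L2 leaves opposite inflorescences although that vine was sampled for tendrils. Organ and genotype changed together between inflorescences and tendrils and cannot be told apart. Each node had 1 inflorescence library per line, so a spread between replicates is also a difference between lines.

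Depth, worked back from the RPKM values, ran from 7.36 to 15.18 M reads (M, 1e6) in the 11 libraries. The labelled organs matched their markers. The summed level of 6 floral organ genes (MADS9, TM6, AP3, AG, MADS1 and MADS2) was 1191 to 2222 RPKM in inflorescences, 0.927 to 1.15 in tendrils and 3.66 to 5.51 in leaves. The summed level of AP1 and VFUL-L, which are active in inflorescences and tendrils, was 150 to 202 RPKM in inflorescences, 188 to 375 in tendrils and 1.09 to 5.001 in leaves. In bulk tissue, fewer cells of a type and less transcript per cell cannot be told apart.

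Of the 55 genes, 52 were found in the RefSeq table, 51 of them as protein-coding genes and LOC100256027 as a pseudogene. LOC100244478, LOC100253530 and LOC100258028 were not in it. The other 54 gene numbers carry no function in the sources used here and are given by number. Gene lengths, worked back from the RPKM values as the smallest that gave whole reads, were 275 to 5271 bases, with a median of 1600. All 605 of their values, in 11 libraries, came back as whole reads, with 86 to 4200 reads per gene and library at inflorescence node 1. The members nearest the limit of 10 RPKM were LOC100254880 (10.16), LOC100246307 (10.62) and LOC100244478 (10.90). The genes just outside it were LOC100250017 (9.92), LOC100249055 (9.84) and LOC100256556 (9.80). Nearest the step limit of 50% were LOC100243647 (49.82%), LOC100247426 (49.77%) and LOC100260888 (49.70%). The closest excluded genes had 50.02% (LOC100249418), 50.10% (LOC100264662) and 50.13% (LOC100241610).

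In line 06C021V0046 the 55 genes had 10.16 to 153 RPKM at node 1, with a median of 26.6, then a median of 7.20 at node 2 and 2.06 at node 3. In line 06C008V0003 the node 1 levels were 10.62 to 134 RPKM, with medians of 25.5, 9.65 and 2.72 at the 3 nodes. At the first step, the median percentage of the node 1 level kept at node 2 was 29.6% in 06C021V0046 and 42.0% in 06C008V0003. At the second step, the medians of the node 2 level kept at node 3 were 28.8% and 30.0%. The rule capped these percentages in both lines, so the medians are not a comparison of the lines. Between node 1 and node 3 the level differed 4.30-fold to 1082-fold in 06C021V0046, with a median of 10.66-fold. In 06C008V0003 the range was 4.12-fold to 402-fold, with a median of 8.32-fold over the 54 genes with a read at node 3. A difference of at least 10-fold was held by 34 of 55 genes in 06C021V0046 and by 19 in 06C008V0003. At node 1 the lines were within 2-fold of each other for 47 of the 55. The rule used all of these values, and no share over all genes was taken. Applied to 1 line alone, the rule was met by 360 genes in 06C021V0046 and by 100 in 06C008V0003. Nothing about the members is therefore read from these medians and counts.

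**Figure D1:**
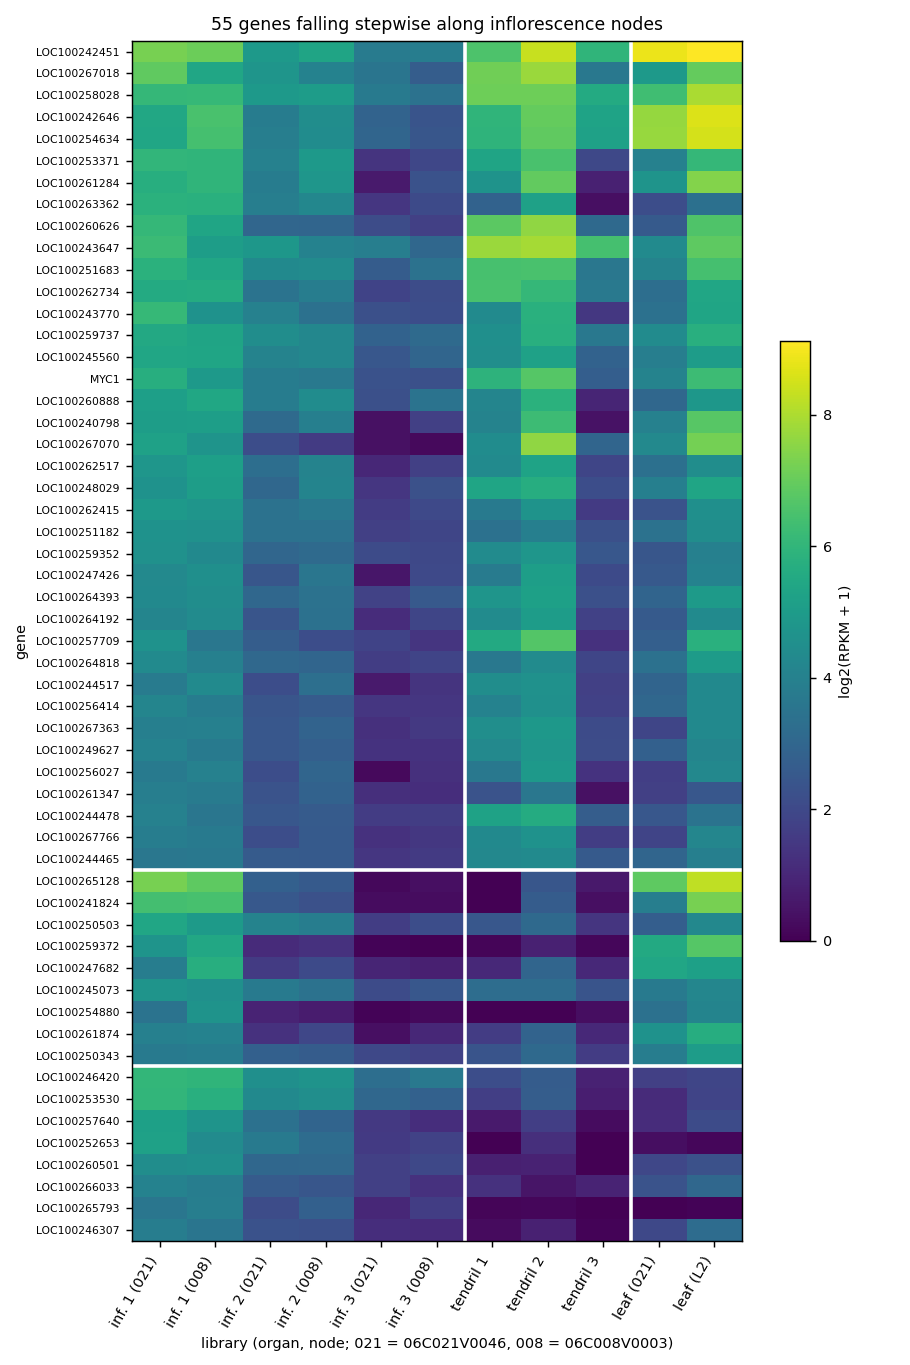
Level of each of the 55 genes (rows) in each of the 11 libraries (columns), as log2(RPKM + 1). White lines separate inflorescences, tendrils and leaf pools, and, from top to bottom, 38 genes with at least 10 RPKM in a tendril library, 9 with less in tendrils but at least 10 in a leaf pool, and 8 with less than 10 in both. The inflorescence columns darken from node 1 to node 3 by the rule, and the tendril node 3 column is darker than tendril node 2 for 53 of the 55 genes.

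LOC100242451 had the highest mean at node 1, with 149.98 RPKM in 06C021V0046 and 134 in 06C008V0003. It had 28.8 and 38.96 RPKM at node 2 and 12.98 and 13.64 at node 3. These node 3 levels were among the highest of the group, and the lines stayed close at every node.

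The largest falls were those of LOC100265128, LOC100241824 and LOC100259372. LOC100265128 had 153 and 115 RPKM at node 1, 5.89 and 4.99 at node 2, and 0.141 and 0.287 at node 3, which were 1 and 2 reads. LOC100241824 had 84.2 and 87.2 RPKM at node 1, 4.78 and 3.84 at node 2, and 0.227 and 0.230 at node 3. LOC100259372 had 25.3 and 43.3 RPKM at node 1, 1.17 and 1.46 at node 2, and 0.066 and 0 at node 3, where 1 read and none were counted. These 3 genes kept 3.37% to 5.68% of their node 1 level at node 2, and at node 3 they were down to between 0 and 3 reads.

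The 3 genes next in size of fall kept more of their level at node 2 than the 3 above. Not every gene with a large fall did so, as LOC100254880 kept 8.56% in 06C021V0046 but 2.48% in 06C008V0003. LOC100267070 had 35.9 and 25.5 RPKM at node 1, 3.40 and 1.98 at node 2, and 0.327 and 0.166 at node 3. LOC100261284 had 51.6 and 61.6 RPKM at node 1, 13.2 and 26.5 at node 2, and 0.585 and 3.96 at node 3. LOC100253371 had 63.3 and 61.5 RPKM at node 1, 15.1 and 29.5 at node 2, and 1.60 and 2.82 at node 3. For LOC100261284 and LOC100253371 the lines were close at node 1, and 06C008V0003 was the higher line at nodes 2 and 3. LOC100263362 (55.98 and 53.96 RPKM at node 1) and LOC100240798 (32.4 and 33.4) showed the same order of the lines. Across the 55 genes, 06C008V0003 was the higher line for 24 at node 1, 34 at node 2 and 35 at node 3. The rule used these values, so nothing about the members is read from the counts. Over the 3 nodes, the median of 06C008V0003 minus 06C021V0046 was 0.12 (log2) for the 55 and 0.11 for all genes tested.

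MYC1, the grapevine bHLH partner of MYB regulators of anthocyanin and proanthocyanidin synthesis, had 51.5 and 28.9 RPKM at node 1. It had 13.3 and 11.99 RPKM at node 2 and 3.97 and 3.71 at node 3. The level thus differed by 12.99-fold between nodes 1 and 3 in 06C021V0046 and by 7.79-fold in 06C008V0003. The lines differed at node 1 and were near each other at nodes 2 and 3.

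In the tendrils of Pinot Meunier L2, a vine not used to choose the genes, the same genes did not step down at every node. Their median was 17.99 RPKM at tendril node 1, 28.2 at node 2 and 2.36 at node 3. Node 2 was above node 1 for 51 of the 55, a relation that held for 49.5% of the 19761 genes tested and for 54.0% of the genes with at least 10 RPKM at inflorescence node 1. Node 3 had at most 50% of the node 2 level for 53 of the 55, against 20.3% of genes tested and 18.0% of those with at least 10 RPKM at inflorescence node 1. The median difference between node 3 and node 2 was -2.39 on the log2(RPKM + 1) scale for the 55 genes and 0.00 over all genes tested. Between node 2 and node 1 it was 0.75 and 0.00. Node 3 had at most 50% of the node 1 level for 43 of the 55, against 13.8% of genes tested.

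The stepwise rule itself, applied to the tendril libraries, was met by 3 of the 10458 genes with at least 10 RPKM at tendril node 1 (0.0287%) and by 0 of the 35 members at that level. A fall to at most 25% from tendril node 1 to node 3 was seen for 26 of those 35, against 4.70% of the 10458. Most members thus had a lower level at tendril node 3 than at node 2, and most had a higher level at node 2 than at node 1. The inflorescence order was fixed by the rule, and each tendril node was 1 library. Some members stayed abundant at tendril node 3, such as LOC100243647 with 85.5 RPKM.

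**Figure D2:**
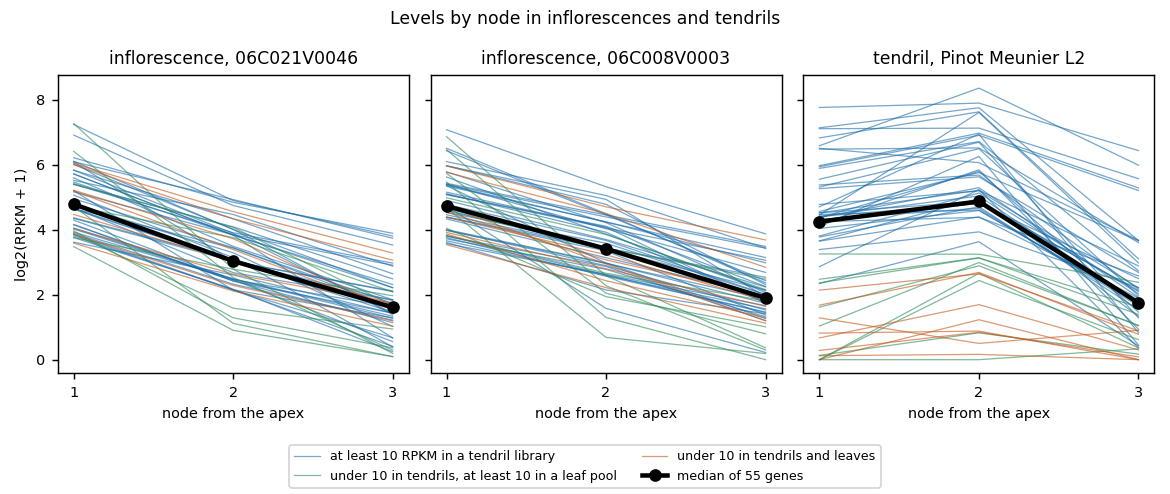
Level at nodes 1, 2 and 3 from the apex, as log2(RPKM + 1), in the inflorescences of each picovine line and in the tendrils of Pinot Meunier L2. Each thin line is 1 of the 55 genes, coloured by its level in tendrils and leaves, and the black line is the median, which falls at both steps in inflorescences but peaks at node 2 in tendrils.

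The tendril values were then tested with limma, in one model of all 11 libraries, with Benjamini-Hochberg adjustment over the 19761 genes. All 55 genes entered the test, which the rule guarantees since each has 2 libraries above 1 RPKM. A linear slope over the 3 tendril nodes was called for 0 genes (0% of genes tested, with 971 at an unadjusted p under 0.05), and 23 of the 55 members had an unadjusted p under 0.05. The difference between node 1 and node 2 was called for 0 of the 55, against 0.0202% of all genes called higher and 0.116% called lower (0.137% either way), and 7 of the 55 had an unadjusted p under 0.05, as did 1182 of all genes. Between node 2 and node 3, 21 of the 55 fell and 0 rose, against 2.89% of all genes that fell and 3.06% that rose (5.96% either way). These separate steps were added after the tendril values had been seen. Each tendril node was 1 library, so node and library cannot be told apart. The error of a step rests on the scatter of the inflorescence and leaf libraries, and the inflorescence values are those that the rule selected on.

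Between tendril nodes 2 and 3 the log2 changes of the 21 called genes ran from -6.11 to -1.76, and these genes are named here after their values were seen. LOC100261284 had 25.1 RPKM at tendril node 1, 122 at node 2 and 0.775 at node 3, where 21 reads were counted (log2 change -6.11 ± 1.16 SE, limma adjusted p = 0.0205). Its neighbour LOC100240798, which may share reads with it, had 16.0, 75.4 and 0.370 RPKM (-5.80 ± 1.10). LOC100257709 had 45.9, 102 and 1.44 RPKM (-5.40 ± 1.14). In each of these genes node 2 was the highest of the 3 tendril nodes and node 3 was under 2% of it. LOC100263362 had 6.27, 36.7 and 0.287 RPKM (-4.87 ± 0.59, adjusted p = 0.00352), and LOC100260888 had 16.9, 56.4 and 0.919 (-4.90 ± 0.81, adjusted p = 0.0123).

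**Figure D3:**
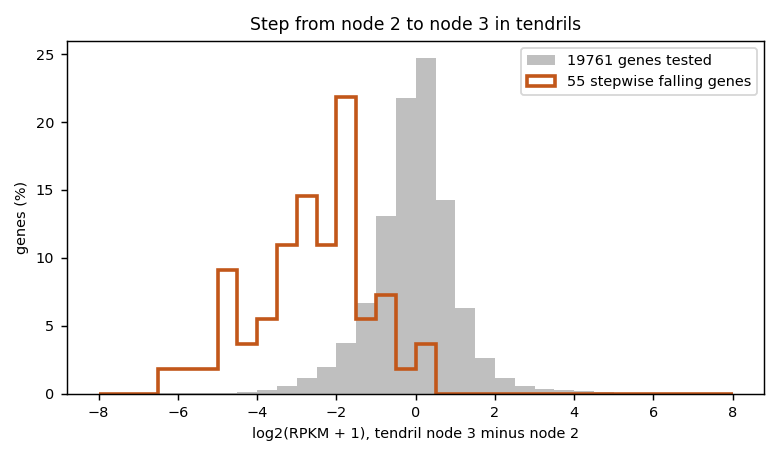
Distribution of the difference between tendril nodes 3 and 2 on the log2(RPKM + 1) scale (horizontal axis) as a percentage of genes (vertical axis), for the 19761 genes tested (grey) and the 55 stepwise falling genes (outline). The outline lies to the left, with a median of -2.39 against 0.00.

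LOC100242451 had 94.8, 327 and 62.3 RPKM at tendril nodes 1, 2 and 3 (-2.37 ± 0.39 between nodes 2 and 3, adjusted p = 0.0122), so it stayed abundant at node 3. LOC100261347 (4.07, 11.38 and 0.339 RPKM) and LOC100244478 (37.4, 48.4 and 5.42) fell by 3.21 and 2.94. These 2 genes, with LOC100242451, LOC100260888 and LOC100263362, were the 5 of the 21 that were called in every setting run. MYC1 had 58.2 RPKM at tendril node 1, 104 at node 2 and 5.65 at node 3 (-3.98 ± 0.81, adjusted p = 0.0264).

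Of the remaining called genes, LOC100267070, LOC100253371, LOC100243770 and LOC100267018 fell by 4.63, 4.52, 4.33 and 4.09. LOC100248029, LOC100262517 and LOC100264192 fell by 3.51, 3.37 and 3.29. LOC100256414, LOC100249627, LOC100245560, LOC100253530 and LOC100246420 fell by 1.76 to 2.82. Without the first replicate of inflorescence node 2 the count was 11, without the second replicate of node 3 it was 13, and without the 06C021V0046 or the Pinot Meunier L2 leaf pool it was 38. With the genotype as a replicate block it was 42, and without the filter on low values it was 6.

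Some other measures also differed at tendril node 3, and others did not. The summed level of the heat-response genes HSP101 and HsfA2 was 592 RPKM at tendril node 1, 685 at node 2 and 352 at node 3, and HSP101 alone went from 557 at node 2 to 229 at node 3. HsfA2 had 128 and 124 RPKM at these nodes. Neither heat-response gene was called in the step between nodes 2 and 3, with log2 changes of -1.28 for HSP101 and -0.06 for HsfA2. Of the photosynthesis genes, PSBP1, an extrinsic protein of photosystem II, had 752, 868 and 175 RPKM at tendril nodes 1, 2 and 3 and fell by 2.30 between nodes 2 and 3 (adjusted p = 0.0395). The other 2 did not go that way, with 9.10 and 10.77 RPKM for NDHM and 34.3 and 36.3 for PSBP2 at nodes 2 and 3. Because PSBP1 is the most abundant, the sum of the 3 genes was 793, 911 and 222 RPKM. The tendril node 3 library was also the deepest, with 15.18 M reads, and that of node 2 the shallowest, with 7.36 M. In inflorescences PSBP1 had 336 and 174 RPKM at node 1 and 104 and 95.99 at node 3, whereas NDHM and PSBP2 were higher at node 3 than at node 1 in both lines. The part of these measures in the tendril node 3 levels was not tested.

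The 55 genes differed in level outside the inflorescence. Divided at 10 RPKM, a limit set after the values had been seen, 38 reached it in at least 1 tendril library, 9 reached it in a leaf pool only, and 8 in neither. At tendril node 1, 17 of the 38 were at least as high as in both inflorescence libraries of node 1. LOC100243647 had the highest such level, 216 RPKM at tendril node 1 against 73.2 and 33.1 in inflorescences. The division favours this count, since members under 10 RPKM in tendrils could not reach it. No share over all genes was taken for this count or for the division. The 10494 genes with at least 10 RPKM at inflorescence node 1 in both lines had medians of 24.4, 24.8 and 23.7 RPKM at tendril nodes 1, 2 and 3. Most of those genes thus also reached 10 RPKM in tendrils, and the division is not read as particular to the members. At tendril node 3 all 38 had at most 50% of their node 2 level, as did 8 of the 9 and 7 of the 8.

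The 9 genes low in tendrils but not in leaves included the 3 with the largest inflorescence falls. LOC100265128 had 0, 4.41 and 0.534 RPKM at tendril nodes 1, 2 and 3, and its leaf levels were 117 RPKM in 06C021V0046 and 306 in Pinot Meunier L2. LOC100241824 had 0, 5.31 and 0.286 RPKM in tendrils and 13.9 and 150.3 in the leaf pools. LOC100259372 had 0.096, 0.773 and 0.125 RPKM in tendrils, on 9 reads in all, and 45.9 and 104 in the leaf pools. In these 3 genes both leaf pools lay above every tendril library.

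LOC100254880 had no read at tendril nodes 1 and 2 and 4 reads at node 3 (0.260 RPKM), with 9.66 and 16.2 RPKM in the leaf pools. LOC100247682 had 1.05, 6.94 and 1.06 RPKM in tendrils and 41.5 and 35.2 in leaves, and LOC100261874 had 2.06, 6.40 and 1.08 in tendrils and 24.3 and 50.2 in leaves. LOC100250343, LOC100250503 and LOC100245073 made up the rest of the 9. A level under 1 RPKM at tendril node 1 was found for 9 of the 55 genes, against 12.1% of genes tested and 0.896% of those with at least 10 RPKM at inflorescence node 1.

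The 8 genes under 10 RPKM in tendrils and leaves were LOC100246420, LOC100253530, LOC100257640, LOC100252653, LOC100260501, LOC100266033, LOC100265793 and LOC100246307. LOC100246420 had 64.7 and 61.3 RPKM at inflorescence node 1, at most 5.23 in tendrils and at most 2.80 in leaves. LOC100253530 had 63.3 and 53.5 RPKM at inflorescence node 1, at most 5.44 in tendrils and at most 2.67 in leaves. LOC100265793 had 11.02 and 14.1 RPKM at inflorescence node 1, with 2 reads in the 3 tendril libraries and 1 read in the leaf pools. LOC100246307 and LOC100266033 were less limited to inflorescences, with 8.38 and 7.28 RPKM in the Pinot Meunier L2 leaf pool, above their own levels at inflorescence node 2. The members were chosen for a high inflorescence level, so the difference between organs was not tested.

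Tendrils were compared with leaves over the mean of the 3 tendril nodes. Of the 55 genes, 13 were called lower in tendrils and 0 higher, against 9.71% of genes tested that were lower and 2.89% that were higher (12.6% either way). LOC100265128 was lower by 6.55 ± 0.69 on the log2 scale (SE, limma adjusted p = 0.000294), LOC100259372 by 5.75 ± 0.60 (0.000257) and LOC100241824 by 4.56 ± 0.96 (0.0115). LOC100254880 was lower by 3.65 ± 0.56 (0.00215), while LOC100247682 changed by -3.60 and LOC100261874 by -3.32. The changes of LOC100246307, LOC100254634, LOC100250343, LOC100242646 and LOC100242451 ran from -2.19 to -2.01, and those of LOC100266033 and LOC100260501 were -1.79 and -1.54. Of the 13, LOC100254880 and LOC100259372 were called in every setting run.

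The median difference between tendrils and leaves was -0.24 for the 55 genes and -0.14 for all genes tested. With the genotype as a replicate block, which leaves only the Pinot Meunier L2 leaves to carry the contrast, the median of the 55 was -1.15 and 10 were called lower. When the leaf pool of Pinot Meunier L2 was left out, the median was 0.43, with 8 called lower and 2 higher. Without the tendril library of node 1 or of node 3, 4 were called lower and 2 higher. Fitted on the 3 tendril and 2 leaf libraries alone, 2 were called. After median-ratio scaling 12 were called lower and 0 higher, while among all genes the split went from 572 higher and 1918 lower to 922 and 1527, with a median of 0.04.

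The leaf pools differed for these genes. The pool of Pinot Meunier L2 was the higher for 53 of the 55, against 47.0% of genes tested and 40.7% of those with at least 10 RPKM at inflorescence node 1. It was at least 2-fold higher, with a read in the other pool, for 43 of the 55, against 13.3% and 8.44%. The median level of the 55 was 8.72 RPKM in 06C021V0046 and 27.6 in Pinot Meunier L2, and the median difference was 1.38 on the log2 scale, against -0.03 for all genes tested. Each genotype had 1 leaf library, so the difference has no replicate check and no test.

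LOC100260626 had 5.01 RPKM in leaves of 06C021V0046 and 95.8 in leaves of Pinot Meunier L2, a 19.1-fold difference. LOC100241824 differed 10.80-fold, LOC100257709 9.34-fold (5.85 and 54.6 RPKM) and LOC100256027 8.16-fold (2.23 and 18.2). MYC1 had 15.8 and 75.8 RPKM, a 4.80-fold difference. LOC100242451, the gene highest in leaves, had 457 and 557 RPKM and so differed little. The 2 exceptions were LOC100247682 (41.5 and 35.2 RPKM) and LOC100252653 (0.269 and 0.110), and LOC100265793 was higher by a single read. The difference of at least 2-fold was held by 34 of the 38 genes expressed in tendrils, 6 of the 9 low in tendrils only, and 3 of the 8 low in both.

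**Figure D4:**
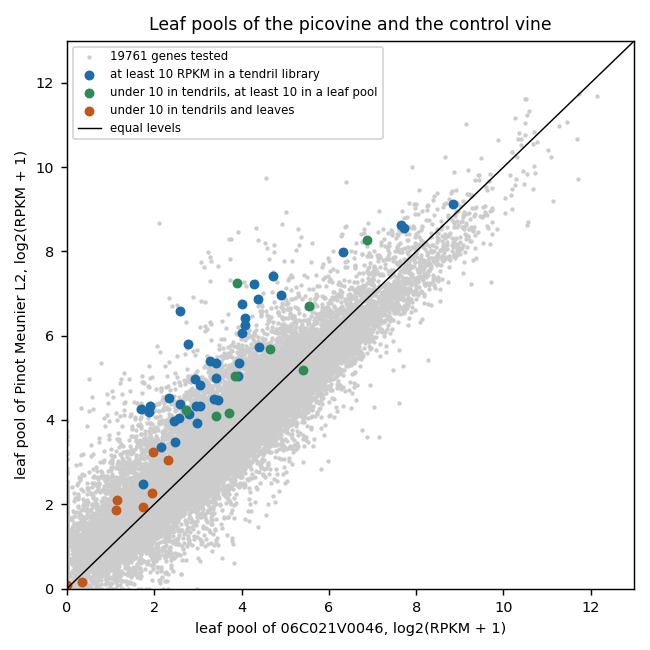
Level in the leaf pool of 06C021V0046 (horizontal axis) and of Pinot Meunier L2 (vertical axis), as log2(RPKM + 1), 1 library each. Grey points are the 19761 genes tested, coloured points are the 55 stepwise falling genes by their level in tendrils and leaves, and the line marks equal levels, with 53 of the 55 above it.

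The 2 leaf pools also differed in other measures. The heat-response sum of HSP101 and HsfA2 was 33.0 RPKM for 06C021V0046 and 323 for Pinot Meunier L2, and both genes were present in each. PSBP1 was higher in Pinot Meunier L2 (337 and 637 RPKM), and NDHM (36.3 and 27.5) and PSBP2 (73.3 and 46.3) were lower, with sums of 447 and 711 RPKM. PR1, a defence gene, had 3338 and 848 RPKM. Depth was 9.21 and 14.99 M reads. The part of these measures in the higher levels of the 55 genes was not tested, and genotype and library cannot be told apart.

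The 2 picovine lines were compared over the 3 inflorescence nodes, with node as a factor. Of the 55 genes, 10 were called, 7 higher and 3 lower in 06C008V0003, against 10.9% of genes tested that were higher and 8.76% that were lower (19.7% either way). The rule used these same libraries and asked both lines to pass, which limits how far the lines can differ. Nothing about the members is therefore read from this count, and the called genes are listed below only as a description. LOC100261284, LOC100247426, LOC100244517, LOC100248029, LOC100260888, LOC100264192 and LOC100262517 were higher by 0.63 to 0.95 on the log2 scale. The 3 lower genes were LOC100267018, with 119 and 41.2 RPKM at node 1 in 06C021V0046 and 06C008V0003, LOC100243647, with 73.2 and 33.1, and LOC100257709, with 24.4 and 11.21. None of the 10 was called in every setting run.

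After median-ratio scaling, which moves the median of all genes from 0.11 to 0.00, 1 of the 55 was called higher and 4 lower, and among all genes 1140 were higher and 2284 lower instead of 2161 and 1731. Without the first or the second replicate of inflorescence node 2 the count of members was 0. It was 2 and 1 without the first and second replicates of node 3, and 0 without the filter on low values.

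MYC1 was set beside 33 other flavonoid genes. The list was assembled with MYC1 in view, and 7 of its 34 symbols were added once the names in the table had been seen. Of the 24 with a mean of at least 10 RPKM at inflorescence node 1, 5 had at most 50% of the node 1 level at node 3 in both lines, against 18.1% of all 11424 genes with such a mean. The list's count is near that share. The 5 were MYC1, the WD40-repeat genes WDR1 and WDR2, the chalcone synthase CHS2 and the flavonoid 3'-hydroxylase F3'H. WDR1 and WDR2 encode proteins of the kind that join bHLH and MYB factors. CHS1 and CHS2 are near-identical copies whose reads may have been shared.

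WDR2 had 58.1 and 25.9 RPKM at inflorescence node 1, 22.6 and 15.9 at node 2, and 10.25 and 5.73 at node 3. It met the stepwise rule in 06C021V0046 only, since 06C008V0003 kept 61.2% at the first step. WDR1 had 13.5 and 7.75 RPKM at node 1, 5.12 and 2.64 at node 2, and 5.32 and 3.67 at node 3. F3'H, which adds a hydroxyl group to the flavonoid B-ring, had 127 and 33.96 RPKM at node 1, 37.7 and 17.5 at node 2, and 26.9 and 11.02 at node 3. WDR1 and F3'H thus dropped at the first step and changed less, or not downward, at the second.

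DFR, LDOX and ANR, later enzymes of the pathway, did not decrease along the inflorescence in both lines. DFR, which reduces dihydroflavonols, had 202 and 178 RPKM at node 1 and 193 and 245 at node 3. LDOX, the anthocyanidin synthase, had 933 and 586 RPKM at node 1 and 1116 and 787 at node 3. ANR, which leads to proanthocyanidins, had 199.6 and 168 RPKM at node 1 and 259.8 and 346 at node 3. LDOX and ANR were higher at node 3 in both lines, and DFR was higher in 06C008V0003 only. These genes were picked from the list, and others differed. The glutathione transferase GST4 had 54.6 and 27.6 RPKM at node 1 and 21.3 and 13.8 at node 3. LAR2 (16.4 and 8.17 RPKM, then 5.66 and 5.75) and UFGT (6.53 and 1.36, then 2.58 and 1.21) were also lower at node 3 in both lines. LAR1 was higher in both, with 65.7 and 43.8 RPKM at node 1 and 97.8 and 101 at node 3.

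In tendrils, F3'H had 162, 268 and 12.8 RPKM at nodes 1, 2 and 3, WDR1 had 24.9, 40.3 and 2.68, and WDR2 had 42.7, 49.6 and 15.7. With MYC1 these genes shared the peak at node 2 and the low level at node 3. Of the 24 genes, 12 had at most 50% of the node 2 level at tendril node 3, against 18.2% of all genes with that mean. In the limma test of that step, 3 of the 34 genes fell, against 2.89% of all genes, namely MYC1, F3'H (-4.28 ± 1.04 SE, adjusted p = 0.0441) and MYBC2-L2, a MYB repressor (-2.13 ± 0.32, adjusted p = 0.00866). The glutathione transferase GST4, the leucoanthocyanidin reductase LAR1 and MYB60 rose by 3.33, 2.31 and 2.24, against 3.06% of all genes that rose. The median of the list was -0.64, against 0.00 for all genes tested. WDR1 and WDR2 were not called.

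**Figure D5:**
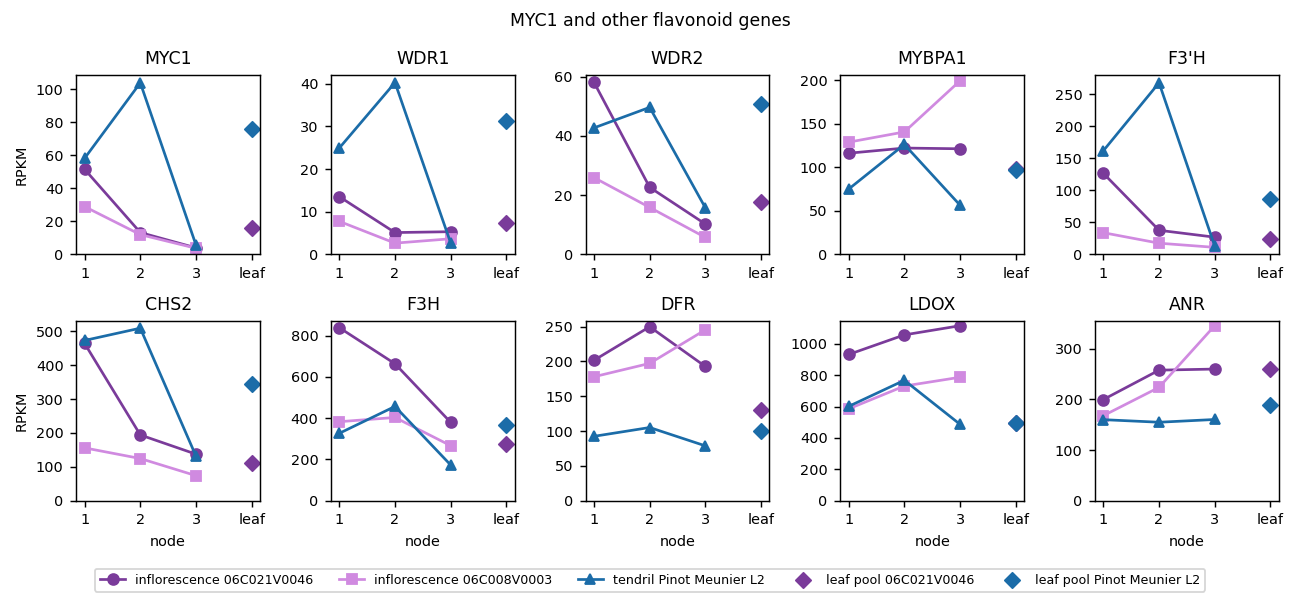
RPKM (vertical axes, each from 0) of MYC1 and 9 other flavonoid genes at nodes 1, 2 and 3 and in the leaf pools (horizontal axes), with 1 point per library. MYC1, WDR1, WDR2 and F3'H are low at node 3 in tendrils and lower at node 3 than at node 1 in both inflorescence lines, whereas DFR, LDOX and ANR are not lower at node 3 in both lines.

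In leaves, MYC1, WDR1, WDR2 and F3'H were each higher in the Pinot Meunier L2 pool, by 4.80-fold, 4.22-fold, 2.86-fold and 3.53-fold. A difference of at least 2-fold in that direction was held by 13.3% of genes tested. The list was mixed, and no count over it was taken. CHS1 (3.18-fold) and LAR2 (3.79-fold) were also higher in that pool, and LDOX was near equal (1.01-fold). CHI (0.64-fold), DFR (0.77), ANR (0.73), LAR1 (0.79), GST4 (0.61) and VINST1 (0.29) were lower there. The difference between the picovine lines was called for 11 of the 34 list genes, with 10 lower in 06C008V0003 (CHS1, CHS2, CHS3, F3H, F3'H, LDOX, UFGT, WDR1, WDR2 and GST4) and MYB30 higher, against 8.76% of all genes lower and 10.9% higher. F3'H was lower by 1.38 ± 0.17 (SE, limma adjusted p = 0.00568), while MYC1 stood at -0.34 and was not called (adjusted p = 0.206). None of the 11 was called in every setting run. Tendrils against leaves called 2 of the 34 genes higher and 4 lower, near the 2.89% and 9.71% of all genes, and MYC1 stood at -0.06 (adjusted p = 0.98).

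A further 12 lists of name patterns, from cell division to photosynthesis, were matched to the 316 genes that had a symbol or synonym. They matched 98 named genes, 54 of them with at least 10 RPKM at inflorescence node 1. As MYC1 is the 1 named member and its name is in none of these patterns, the lists could match none of the 55. They say nothing of the 54 members known by number alone.

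Some members lie close together in the gene order of the RefSeq table. LOC100242646 and LOC100254634 are next to each other and had nearly equal values in every library, such as 43.1 and 41.4 RPKM at inflorescence node 1 of 06C021V0046 and 396 and 375 in leaves of Pinot Meunier L2. Reads of these 2 genes may have been shared, so they may not be separate measurements. LOC100240798 and LOC100261284 have 2 genes between them and showed like profiles, with tendril node 2 levels of 75.4 and 122 RPKM. Their leaf differences were 7.03-fold and 6.74-fold, and their inferred lengths 1781 and 1786 bases. Reads of this pair may also have been shared, so their 2 calls in the tendril step may not be separate. LOC100267766 and LOC100266033 have 5 genes between them and differed, with 24.3 and 0.415 RPKM at tendril node 2.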

How the data were processed

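Messenger RNA libraries were single-end sequenced on the Illumina platform, per the labels' protocols. The authors deposited 1 RPKM value per gene number and library, and the submitters' processing notes list Bowtie 0.12.7 and TopHat 1.2.0. The build, annotation, counting tool and treatment of shared reads are not given in the sources used here. Names came from the RefSeq table of ASM3070453v1, which held 18647 of 25771 gene numbers, and no coordinates are printed.

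Tests used limma 3.58.1 (R 4.3.3) with log2(RPKM + 1) as the response, which understates changes of low genes, over 19761 genes with at least 1 RPKM in at least 2 libraries. One two-sided model with a variance trend over all 11 libraries held 3 organ means and a linear slope on node in inflorescences and in tendrils (6 residual and 4.54 prior degrees of freedom). The tendril steps used the tendril nodes as a factor (5 and 4.57). The lines were compared in the 6 inflorescence libraries (2 and 4.80). Genes were called at an adjusted p of 0.05. Nothing says that the libraries of a group came from separate plants, so p-values measure only the spread between these libraries. In simulated data, changes of 2 and 4 on the log2 scale between tendril nodes 2 and 3 were recovered for 31% and 79% of changed genes among 19761. The simulated noise came from the fitted residual scatter, to which 1 library per tendril node adds nothing, so the true tendril scatter was assumed. For tendrils against leaves, changes of 1 and 2 were recovered for 4% and 63%, and 9.5% of calls were false.

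Reads were recovered from the RPKM values with library depths and gene lengths inferred from those same values. All 605 member values (100%) were whole within 0.01 read, or slightly more for the largest counts. The reads cover counting error only. Replicate numbers stand for genotypes. Across genes the line difference correlated between nodes 1 and 2 (0.629), 1 and 3 (0.546) and 2 and 3 (0.689). Genotype was therefore used as the block in an alternative fit. The main tendril and leaf fits held no genotype block. With the block, the leaf pools alone connect the tendrils to the picovine libraries.

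The members and lists were chosen with earlier results of these data known. Named genes were every member with a symbol, the 10 with the highest node 1 mean, the 10 with the largest fall, those called by the tests (up to 10 each way), up to 5 with the lowest tendril node 1 or highest leaf level, and the 3 nearest each threshold on either side. Genes outside that rule were named after their values were seen. Alternatives covered pseudocounts of 0.1 and 5, no filter, 2 scalings, the block, other libraries in the fit and each library left out.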

Additional observations from a re-analysis of the deposited data

Results flagged for a closer look

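For 51 of the 55 genes the first step along the shoot went opposite ways in the 2 organs. Tendril node 2 was above tendril node 1, while inflorescence node 2 was below node 1 in both lines. The inflorescence direction is set by the rule that chose the genes, each tendril node was 1 library, and the difference was not tested. Tendril node 2 was also above node 1 for 49.5% of all genes tested. Some of the 51 rises were small or rested on few reads. LOC100265793 had 1 read at each of tendril nodes 1 and 2, and LOC100258028 rose 1.01-fold. The 4 genes without the opposite step were LOC100245073, LOC100254880, LOC100262734 and LOC100266033.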

How the results depend on the processing

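No called gene changed direction under any setting run, but the counts of members called moved. The linear tendril slope called 0 members in every setting except without the tendril library of node 1, where it becomes the step between nodes 2 and 3 (range 0 to 21 over libraries left out). As a plain ratio of node 3 to node 1, 43 members were at or under 50%. The fall between tendril nodes 2 and 3 called 21 members, 6 without the filter, 13 after quantile normalization, 42 with the replicate block, and 11 to 38 with 1 library left out. The step between nodes 1 and 2 called 0, and 1 with a pseudocount of 0.1. Tendrils against leaves called 13, 2 with only the tendril and leaf libraries, 10 with the replicate block and 6 to 17 with 1 library left out. The line difference called 10, 6 with a pseudocount of 0.1, 0 without the filter, 5 after median-ratio scaling, 2 with node as a linear covariate, and 0 to 12 with 1 library left out. The causes were not tested.

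The rule itself gave 55 genes, 85 with a minimum of 5 RPKM and 32 with 20, 417 with steps to at most 66.7% and 8 with steps to at most 33.3%. It gave 360 in 06C021V0046 alone, 100 in 06C008V0003 alone, 187 on the mean of the lines, and 40 after median-ratio scaling, 35 of them among the 55. Over single genes, 59 of 294 settings ended a call of the step between nodes 2 and 3, 45 of 234 a call of tendrils against leaves, and 73 of 120 a call of the line difference. In tendrils 0 members met the stepwise rule, and 26 fell to at most 25% overall. With the block, the slope called 0 and the step between nodes 1 and 2 called 0. Depth limits node 3 levels, where some members had 0 to 3 reads.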
